A study of Mus musculus with 12 samples.

Results

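Expression of 10 mast cell genes was examined in *Stella*-knockout and *Stella*-overexpressing female germline stem cells (FGSCs). The genes encode the stem cell factor receptor (*Kit*), the chains of the high-affinity IgE receptor (*Fcer1a*, *Ms4a2* and *Fcer1g*), and enzymes or transporters for histamine (*Hdc*), serotonin (*Tph1*), vesicular amine storage (*Slc18a2*), prostaglandin D2 (*Hpgds*) and leukotrienes (*Alox5* and *Ltc4s*). They were chosen by name and not by a threshold on their values, but with earlier results of these data known. Every RefSeq transcript listed under these symbols was taken, 19 transcripts of the 41388 in the table and 10 genes of 24813. A total of 5 genes had enough counts to be tested (*Fcer1g*, *Hdc*, *Tph1*, *Slc18a2* and *Hpgds*), and the other 5 did not pass the filter on low counts.

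All 12 libraries came from C57BL/6 mouse FGSCs at passages above 20. The cells had been purified from ovaries with an antibody against MVH and were grown on inactivated STO mouse fibroblast feeders with LIF, EGF, bFGF and GDNF. There were 4 groups of 3 libraries. KO was a *Stella*-knockout line made with lentiviral CRISPR/Cas9, a single randomly selected clone, and KO-con is labelled as its control without further description. Over was a line infected with a *Stella* lentivirus and selected with puromycin, and Over-con received the empty lentiviral vector. No source says that the 3 libraries of a group were separate cultures, so p-values measure the spread between libraries, which may be technical, and the effect of the knockout cannot be told apart from that of the clone.

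Mast cells are tissue-resident immune cells that depend on stem cell factor, which binds the tyrosine kinase KIT. Antigen that crosslinks IgE on the receptor FcεRI (an α chain that binds IgE, a β chain that amplifies the signal and a dimer of signalling γ chains) makes them release granules. Granules hold histamine, serotonin, proteases and heparin, while prostaglandin D2 and leukotrienes are made from arachidonic acid on demand. KIT is also a receptor of primordial germ cells and growing oocytes, and the γ chain, HPGDS and VMAT2 (encoded by *Slc18a2*) are shared with other blood cells or with neurons.

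Between 5611846 and 12866545 reads were counted per library (median 10221419). Only more than 3 counts in a library was read here as expression. The floor of 3 counts corresponded to between 0.233 and 0.535 CPM (counts scaled to equal library size), a limit that reflects counting error alone. *Stella*, listed as Dppa3, had 347, 371 and 285 counts in Over and 0 in all other libraries, so the knockout could not be checked against KO-con at this depth. Genes with more than 1 listed transcript had few counts: 23.3% of 7541 such protein-coding genes reached a mean of 1 CPM, against 50.6% of 13105 genes with 1 listed transcript. How reads shared between transcripts were counted is not given in the sources used here. The label of the cells was set against marker lists. Of 9 germ cell markers 3 exceeded 3 counts in any library, led by *Ifitm3* (mean 124 CPM). The others were *Stella*, counted only in Over, which received it by lentivirus, and *Prdm1*, with at most 21 counts in a library. *Ddx4*, the gene of MVH, and *Gfra1* were at 0 throughout. *Dazl*, *Pou5f1* and *Nanos3* had 1 count each over all libraries. These 5 genes too have more than 1 listed transcript. Of 12 mast cell markers 5 exceeded 3 counts, led by the granule protease gene *Cpa3* (mean 756 CPM), while *Fcer1a*, *Ms4a2* and *Tpsab1* were at 0 in all libraries. The summed fibroblast markers (5 of 7 above 3 counts, *Pdgfrb* at 0) ranged from 820 to 1208 CPM in KO, from 940 to 1128 for KO-con, from 1198 to 1265 for Over and from 1343 to 1520 for Over-con. Feeder RNA, also from mouse, is counted on the same transcripts, and in bulk samples fewer cells of a type and less RNA per cell cannot be told apart.

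*Kit* was almost undetected. Its transcript NM_001122733 had 0, 1 and 1 counts in KO and 0, 2 and 3 in KO-con, with 2, 1 and 0 for Over and none for Over-con, and NM_021099 had 0 counts in all libraries. No library exceeded 3 counts, and no difference between groups was detectable at this depth. On mm9 *Kit* is at chr5:75970941-76052747 (plus strand). Its coding transcript models in GENCODE are nearly alike, since 98.8% of the 30-base stretches of one (Kit-001) and 99.3% of those of the other (Kit-002) occur in both. Kit-001 has the longer coding sequence, 2964 against 2940 bases, so it also holds bases that Kit-002 lacks, which are not shown here. Within exon 9 of 21 Kit-002 holds 12 bases that Kit-001 lacks, at mm9 chr5:76035172-76035183. They are shown in capitals with 9 bases on either side because only reads over such stretches tell the transcripts apart.
Kit-002, exon 9: catttaaagGTAACAACAAAGagcaaatcc

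The chains of FcεRI differed widely. *Fcer1a*, the IgE-binding α chain (NM_010184; chr1:175151402-175157360, minus strand), had 0 counts in every library although it has a single listed transcript. *Ms4a2*, the signal-amplifying β chain (chr19:11690013-11698209, minus strand), had 0 counts on each of its 4 listed transcripts. Its GENCODE coding models share between 37% and 97% of their 30-base stretches. *Fcer1g*, the signalling γ chain that also serves other Fc receptors (NM_010185; chr1:173159703-173164496, minus strand), was well expressed in every library. It reached 96.1, 98.7 and 107 CPM in KO and 108, 95.5 and 111 CPM in KO-con. In Over it stood at 96.6, 97.8 and 106 CPM, and in Over-con at 98.5, 107 and 101 CPM. The libraries of all 4 groups overlapped, and the highest and lowest group means were 105 ± 8.11 CPM in KO-con and 100.1 ± 5.07 CPM in Over (SD, n = 3).

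**Figure D1:**
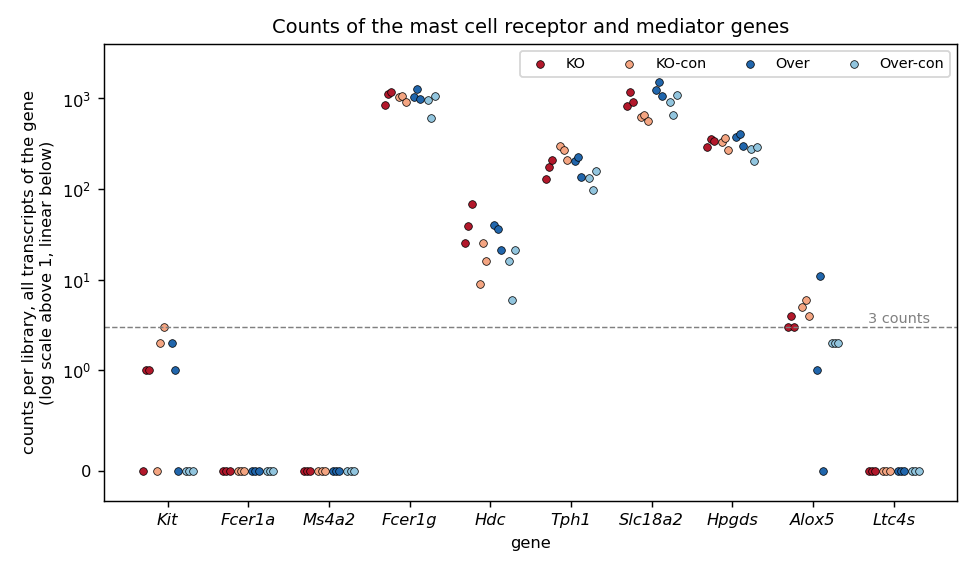
Counts per library on all listed transcripts of each of the 10 genes (y axis, logarithmic above 1 and linear below; x axis, gene), with 1 point per library coloured by group and a dashed line at 3 counts. *Fcer1a*, *Ms4a2* and *Ltc4s* lie at 0 in all 12 libraries and *Kit* at or under 3, while *Fcer1g* and *Slc18a2* reach between 559 and 1535 counts.

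*Hdc* encodes histidine decarboxylase, the enzyme that makes histamine. It is listed with the transcript NM_008230 (chr2:126419403-126445035, minus strand). It had 25, 39 and 69 counts in KO, or 2.86, 3.41 and 6.26 CPM, against 9, 25 and 16 counts in KO-con, or 0.939, 2.22 and 1.93 CPM. Over had 40, 36 and 21 counts (3.70, 2.79 and 2.26 CPM) and Over-con 16, 6 and 21 counts (1.63, 1.05 and 2.02 CPM). Every KO library was above every KO-con library and every Over library above every Over-con library, but the KO and Over libraries overlapped, as did those of the controls. KO replicate 3 was the highest of all.

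*Tph1* encodes tryptophan hydroxylase 1, which carries out the rate-limiting step of serotonin synthesis outside the brain. The gene is at chr7:53902500-53927907 (minus strand), and its counts fell almost wholly on NM_009414, with 0 on NM_001136084 and at most 3 per library on NM_001276372. NM_009414 stood at 14.5, 15.2 and 18.9 CPM in KO and 31.1, 23.9 and 25.0 CPM in KO-con. It stood at 18.7, 17.4 and 14.6 CPM in Over and 13.1, 17.2 and 15.2 CPM in Over-con. The KO-con libraries were above the other 9, which overlapped one another.

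*Slc18a2* encodes the vesicular monoamine transporter VMAT2, which loads histamine and serotonin into granules. It is listed with NM_172523 (chr19:59335368-59370502, plus strand). Its level was 93.6, 102 and 82.7 CPM in KO and 65.1, 57.7 and 67.5 CPM in KO-con. In Over it was 114, 119 and 114 CPM, and in Over-con 93.7, 116 and 106 CPM. The KO-con libraries were below the other 9, which ran from KO through Over-con to Over with overlap between neighbours.

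The promoters of these 3 amine genes are shown because *Hdc* and *Slc18a2* rose and *Tph1* fell in KO against KO-con. The sequences are the 250 bases before the RefSeq start on GRCm38.p6, 5′ to 3′ on the strand of the gene, and are not converted to mm9. Capitals mark matches on either strand to the GATA factor motif, searched as AGATAA, as AGATAG, as TGATAA and as TGATAG. *Tph1* has 2 listed starts and so 2 windows.
Slc18a2, chr19:59260628-59260877, plus strand: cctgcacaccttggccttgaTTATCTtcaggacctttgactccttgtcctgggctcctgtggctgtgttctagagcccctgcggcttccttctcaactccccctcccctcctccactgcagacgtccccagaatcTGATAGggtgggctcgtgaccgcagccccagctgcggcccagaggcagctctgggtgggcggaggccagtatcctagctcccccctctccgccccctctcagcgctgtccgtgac
Hdc, chr2:126618679-126618928, minus strand: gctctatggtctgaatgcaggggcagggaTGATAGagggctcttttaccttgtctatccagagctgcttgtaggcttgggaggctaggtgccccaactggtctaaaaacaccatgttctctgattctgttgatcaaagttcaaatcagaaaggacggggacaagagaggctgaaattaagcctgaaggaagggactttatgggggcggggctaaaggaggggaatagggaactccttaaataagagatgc
Tph1, chr7:46672538-46672787, minus strand: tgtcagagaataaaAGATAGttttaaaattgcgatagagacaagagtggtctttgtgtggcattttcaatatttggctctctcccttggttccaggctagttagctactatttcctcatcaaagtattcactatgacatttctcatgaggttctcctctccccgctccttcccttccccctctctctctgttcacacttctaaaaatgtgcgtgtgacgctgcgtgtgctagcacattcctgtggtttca
Tph1, chr7:46667378-46667627, minus strand: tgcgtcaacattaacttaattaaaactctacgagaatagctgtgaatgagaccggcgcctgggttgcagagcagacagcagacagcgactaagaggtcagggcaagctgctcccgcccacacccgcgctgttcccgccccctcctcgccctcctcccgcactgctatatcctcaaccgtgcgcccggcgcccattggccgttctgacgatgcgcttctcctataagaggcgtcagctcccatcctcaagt

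The GATA motif occurred 2 times in the window of *Slc18a2*, 230 and 115 bases before the start. It occurred 1 time in that of *Hdc*, 221 bases before the start, and in the upstream window of *Tph1*, 236 bases before it, and the other *Tph1* window held none. Over all 10 genes, 6 of 12 promoter windows (2 for *Kit*, which overlap, and 2 for *Tph1*) held it, against 26.5% of 32851 promoter windows of the same length. A GC box (GGGCGG, either strand) was in 6 of 12 windows against 32.7% of all, and TATAAA (either strand) in 1 of 12, that of *Fcer1a*, against 12.4% of all. A match is a run of letters and not a site of binding.

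*Hpgds*, hematopoietic prostaglandin D synthase (NM_019455; chr6:65067287-65094902, minus strand), makes prostaglandin D2. It stood at 33.1, 31.5 and 30.8 CPM in KO and at 34.6, 32.4 and 32.3 CPM in KO-con. Over had 34.5, 31.8 and 31.7 CPM and Over-con 28.6, 35.5 and 27.7 CPM, so that all groups overlapped. A pseudogene, Gm17147, overlaps it on the opposite strand. The kit was stranded, but the strand setting of the counting is not given in the sources used here.

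Of the leukotriene enzymes neither was tested. *Alox5*, 5-lipoxygenase, which starts leukotriene synthesis (NM_009662; chr6:116360095-116411196, minus strand), had 3, 4 and 3 counts in KO against 5, 6 and 4 in KO-con, and 1, 11 and 0 in Over against 2 in each Over-con library. Its values lay near 3 counts and differed more within Over than between group means. *Ltc4s*, leukotriene C4 synthase (chr11:50049971-50052118, minus strand), had 0 counts on each of its 4 listed transcripts. Its GENCODE coding models share between 83.8% and 100% of their 30-base stretches. A noncoding RNA, Gm16641, overlaps it on the opposite strand.

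Levels were compared between genes only per kilobase of exon, taken as the merged exons of all GENCODE models of a gene. For *Tph1* these are 3682 bases, while its coding models have 577 to 2042 bases. The order of genes with close values, such as *Hpgds* and *Tph1*, may therefore depend on the length used. *Fcer1g* was highest, at a mean of 128 CPM per kilobase over the 12 libraries, followed by *Slc18a2* at 24.8, *Hpgds* at 8.93, *Tph1* at 5.09 and *Hdc* at 0.405 CPM per kilobase. *Alox5* followed at 0.0851 CPM per kilobase. Thus the counts per length of the amine transporter were above those of the enzymes that make histamine and serotonin. However, *Tph1* has 3 listed transcripts and *Slc18a2* has 1, and the level of *Tph1* may be understated, also through the length used. *Ddc*, the decarboxylase that completes serotonin synthesis, had 0 counts in all libraries on its listed transcripts, of which there is more than 1.

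**Figure D2:**
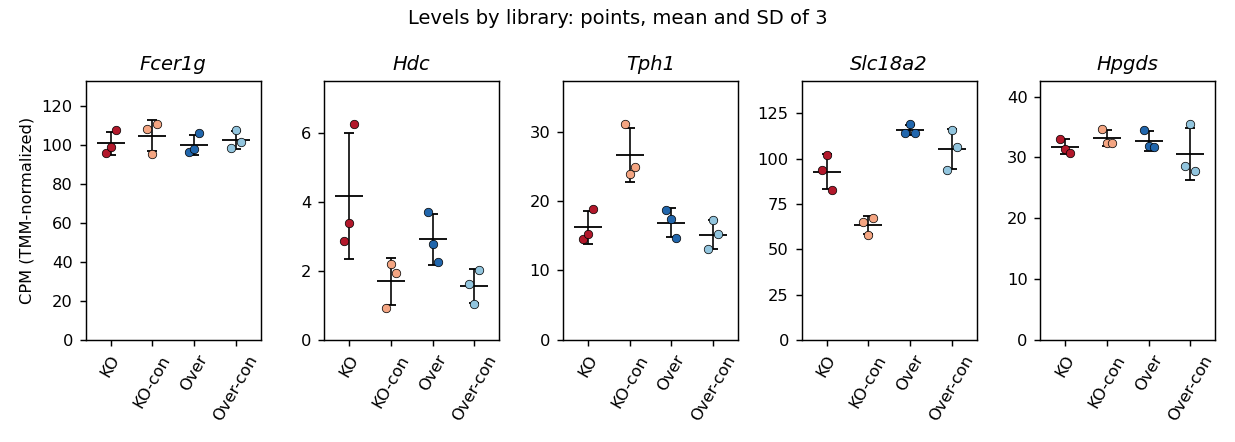
CPM (y axis, normalized by TMM over 12 libraries, from 0) of the 5 tested genes in the 4 groups (x axis). Points are libraries, and horizontal bars and whiskers are the mean and SD of 3. KO-con stands above the other groups for *Tph1* (26.6 ± 3.88 CPM) and below them for *Slc18a2* (63.4 ± 5.06 CPM), and the groups overlap for *Fcer1g* and *Hpgds*.

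KO was compared with KO-con (edgeR's quasi-likelihood test with Benjamini-Hochberg adjustment over 9457 transcripts, calls at an adjusted p under 0.05). *Stella* had 0 counts in both groups, so no loss of its transcript could be seen. Below, the knockout effect means only this difference between KO and KO-con. *Hdc* and *Slc18a2* rose and *Tph1* fell, and *Fcer1g* and *Hpgds* did not pass the test. So 2 of the 5 tested genes were called higher, where 5.83% of all transcripts were, and 1 was called lower, where 5.96% were. *Hdc* was 2.46-fold higher in KO, at 4.18 ± 1.83 against 1.70 ± 0.671 CPM (SD, n = 3), with a log2 fold change of 1.30 (SE 0.36, adjusted p = 0.0267 by edgeR). *Slc18a2* was 1.47-fold higher, at 92.8 ± 9.70 against 63.4 ± 5.06 CPM, with a log2 fold change of 0.56 (SE 0.09, adjusted p = 0.000888 by edgeR). *Tph1* was 1.63-fold lower, at 16.2 ± 2.34 against 26.6 ± 3.88 CPM, with a log2 fold change of -0.71 (SE 0.14, adjusted p = 0.00268 by edgeR). Thus the enzymes of histamine and serotonin synthesis moved in opposite directions against KO-con, though not against Over-con (log2 fold changes of 1.35 and 0.11). The log2 fold changes of *Fcer1g* (-0.05, SE 0.08) and *Hpgds* (-0.06, SE 0.10) were smaller than their errors, with adjusted p = 0.769 and 0.775 by edgeR.

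The groups did not overlap for the 3 called genes, and 30.1% of all transcripts tested also had groups that did not overlap. For any 1 gene, permuting 3 libraries against 3 can reach no exact p under 0.10. *Hdc* had the fewest counts, 133 in KO and 50 in KO-con in total. Its call was lost without KO replicate 2 or 3 or without KO-con replicate 1 or 3, with log2 fold changes from 0.88 to 1.59 over all 6 omissions. Where a call also needed an absolute log2 fold change over 1, *Hdc* alone was called, and 1.7% of all transcripts were. Markers of other cells that make or store amines were low: of 4 genes of enterochromaffin cells and monoamine neurons 1 exceeded 3 counts and their sum reached at most 0.483 CPM in any library, with *Chga* at 0. The 5 platelet and megakaryocyte markers, of which 3 exceeded 3 counts in a library, summed to 306 to 343 CPM in KO and 220 to 260 CPM in KO-con, nearly all of it *Itga2b* (mean 284 CPM), and their part in the result was not tested.

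Overexpression of *Stella* changed none of the 5 genes at an adjusted p under 0.05 by edgeR (Over against Over-con, 9401 transcripts), where 0.766% of all transcripts were called higher and 0.883% lower. At an unadjusted p under 0.05 the count was 1, and DESeq2 and limma-voom also called 0, although DESeq2 gave *Hdc* no adjusted p. *Hdc* came closest, 2.92 ± 0.731 CPM in Over against 1.57 ± 0.488 CPM in Over-con (SD, n = 3), with a log2 fold change of 0.82 (SE 0.31, adjusted p = 0.266 by edgeR). It was the only gene of the 5 whose groups did not overlap, as for 19.1% of all transcripts. Log2 fold changes were 0.17 for *Tph1* (SE 0.14), 0.13 for *Slc18a2* (SE 0.08), 0.10 for *Hpgds* (SE 0.11) and -0.04 for *Fcer1g* (SE 0.07), with adjusted p between 0.505 and 0.861 by edgeR. None of the 5 passed with an absolute log2 fold change over 1 either, where 0.17% of all transcripts did.

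The controls themselves differed (KO-con against Over-con, 9321 transcripts). *Tph1* was 1.78-fold higher in KO-con, with a log2 fold change of 0.83 (SE 0.14, adjusted p = 0.000187 by edgeR), and *Slc18a2* was 1.66-fold lower, with a log2 fold change of -0.73 (SE 0.09, adjusted p = 1.05e-05 by edgeR). Over all transcripts 8.08% were called higher and 8.19% lower, and the groups did not overlap for 31.7%, as they did not for these 2 genes. *Hdc* (0.06, SE 0.38), *Hpgds* (0.13, SE 0.11) and *Fcer1g* (0.04, SE 0.08) did not pass, with adjusted p = 0.936, 0.477 and 0.827 by edgeR. None of the 5 passed with an absolute log2 fold change over 1, and 2.16% of all transcripts did.

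The calls for *Tph1* and *Slc18a2* therefore depended on the control. Against Over-con, KO had a log2 fold change of 0.11 for *Tph1* (adjusted p = 0.791 by edgeR) and -0.19 for *Slc18a2* (adjusted p = 0.372 by edgeR), both of opposite sign to those against KO-con. *Hdc* kept its call, with a log2 fold change of 1.35 (adjusted p = 0.0325 by edgeR), and was the only gene of the 5 called, while 3.07% of all transcripts were called higher and 4.81% lower. Set against KO-con in place of Over-con, Over had a log2 fold change of -0.65 for *Tph1* (adjusted p = 0.00012 by edgeR) and 0.87 for *Slc18a2* (adjusted p = 2.62e-10 by edgeR). There 10.8% of all transcripts were called higher and 10.7% lower. These comparisons share libraries and are not independent of one another.

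**Figure D3:**
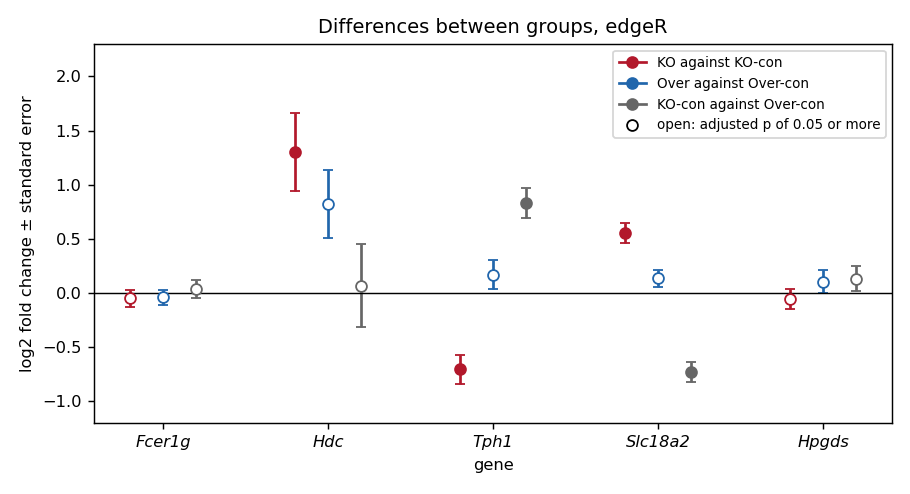
Log2 fold change with its standard error (y axis) of the 5 tested genes (x axis) in 3 comparisons, KO against KO-con in red, Over against Over-con in blue and KO-con against Over-con in grey. Filled points passed an adjusted p under 0.05 in edgeR. For *Tph1* and *Slc18a2* the red and grey points lie on opposite sides of 0, and for *Hdc* the red and blue points lie at 1.30 and 0.82.

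Whether the knockout and overexpression effects differed was tested with all 12 libraries in 1 fit (9903 transcripts). They differed for *Tph1*, by -0.88 on the log2 scale (SE 0.20, adjusted p = 0.00868 by edgeR), and for *Slc18a2*, by 0.42 (SE 0.12, adjusted p = 0.0396 by edgeR). Of all transcripts 4.12% were called with a higher and 4.52% with a lower knockout effect, and 1.9% passed with an absolute value over 1, which none of the 5 genes did. The call of *Slc18a2* was lost in 8 of the 12 fits that left out a library (each Over library, KO and KO-con replicates 1 and 2, and Over-con replicate 2), with values from 0.34 to 0.50. For *Hdc* the difference was 0.48 (SE 0.52, adjusted p = 0.66 by edgeR), so that neither equal nor unequal effects were shown. *Hpgds* (-0.16, SE 0.14) and *Fcer1g* (-0.01, SE 0.11) did not pass, with adjusted p = 0.561 and 0.977 by edgeR.

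The transcripts most like each called gene in pattern were found as those with the smallest root mean square difference between log2 CPM profiles over the 12 libraries, each centred on its own mean, among 6720 transcripts with a mean of at least 5 CPM. For *Slc18a2* these were *Iqgap2*, *Tigd2* and *Acss1*, at 0.106, 0.138 and 0.143 on the log2 scale, against 0.345 for the spread of *Slc18a2* around its own mean. For *Tph1* they were *Slc39a6*, *Klhl2* and *Clcn5*, at 0.124, 0.124 and 0.149 against 0.355. For *Hdc* the nearest, *Arl11*, *Pld4* and *Mdga1*, lay at 0.383, 0.383 and 0.395 against 0.664. *Hdc* had only 6 to 69 counts per library, so counting error adds to its distances. These are descriptions of 12 libraries of 4 groups.

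The genes around the 10 were taken from 9 lists of 150 genes in all. In KO against KO-con 68 of the 150 were tested, 13 were called higher, where 5.83% of all transcripts were, and 3 lower, where 5.96% were, with a median log2 fold change of 0.08 against 0.01 over all transcripts. In Over against Over-con 5 of 63 were higher, where 0.766% of all transcripts were, and 3 lower, where 0.883% were. Between the controls 5 of 64 were higher in KO-con and 13 lower, where 8.08% and 8.19% of all transcripts were. The count in Over against Over-con, 8 in all, was 14 without Over-con replicate 3 and between 1 and 3 without any other library. The calls depended on the control too. With Over-con in place of KO-con, 9 of the 16 genes called in KO were called with the same sign. With KO-con in place of Over-con, 1 of the 8 genes called in Over was, *Ndst2*. Genes with 1 listed transcript were tested more often, 62% of 71 against 30.4% of 79 with more.

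Of KIT ligand and signalling genes 9 of 20 were tested. *Stat5b*, a transcription factor that KIT activates, rose in KO to 3.05 ± 0.54 from 1.35 ± 0.798 CPM (SD, n = 3), with a log2 change of 1.16 (SE 0.36, adjusted p = 0.0485 by edgeR). Its call was lost without KO replicate 2 or KO-con replicate 2 or 3, and against Over-con (0.94, adjusted p = 0.136 by edgeR). The other 8 did not pass, where 5.83% of all transcripts were called higher and 5.96% lower. None of 9 passed in Over against Over-con, where only 0.766% of all transcripts were called higher and 0.883% lower. *Kitl*, stem cell factor itself, had 19 counts in the KO libraries together, with 10 for KO-con, 18 for Over and 8 for Over-con (NM_013598), and was not tested.

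Of the genes that carry the FcεRI signal, 4 of 16 tested rose in KO, where 5.83% of all transcripts did, and none fell, where 5.96% did. None of 16 passed in Over, where only 0.766% of all transcripts were called higher and 0.883% lower. *Prkcb*, a protein kinase C of mast cell signalling, stood at 10.6, 5.94 and 8.35 CPM in KO and 2.71, 3.10 and 2.53 CPM in KO-con, a log2 fold change of 1.55 (SE 0.24, adjusted p = 0.000607 by edgeR). Over-con, at 6.94, 4.56 and 7.80 CPM, overlapped KO, and against it the log2 fold change of *Prkcb* in KO was 0.31 (adjusted p = 0.573 by edgeR). *Lat*, the membrane adaptor on which the complex assembles, stood at 135 ± 8.49 CPM in KO and 82.3 ± 9.82 CPM in KO-con (SD, n = 3). Its log2 fold change was 0.72 (SE 0.09, adjusted p = 4.78e-05 by edgeR). Its Over-con libraries (138 ± 13.8 CPM) overlapped those of KO, so for both genes KO-con was the group that stood apart. *Btk* and *Plcg1*, also of this list, rose by less, with log2 fold changes of 0.31 (SE 0.08, adjusted p = 0.0188 by edgeR) and 0.25 (SE 0.07, adjusted p = 0.0265 by edgeR). Neither passed against Over-con, at 0.19 for *Btk* (adjusted p = 0.236 by edgeR) and 0.23 for *Plcg1* (adjusted p = 0.113 by edgeR). The call of *Plcg1* was lost without any library except KO replicate 1, and that of *Btk* without KO replicate 3 or KO-con replicate 1 or 3.

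The kinases next to the receptor were low. *Syk*, which binds the γ chain, stood at 2.42 ± 0.516 CPM in KO and 3.37 ± 0.0804 CPM in KO-con on NM_011518 (SD, n = 3), with a log2 fold change of -0.45 (SE 0.26, adjusted p = 0.303 by edgeR). *Lyn*, which phosphorylates the receptor chains, had 9, 2, 0 and 3 counts on NM_001111096 in KO, KO-con, Over and Over-con and 0 on NM_010747. Both genes have more than 1 listed transcript. Among other mast cell receptors 1 of 9 tested rose in KO, where 5.83% of all transcripts did. This was *Fcgr1*, the high-affinity IgG receptor that signals through the γ chain, at 204 ± 16.2 against 158 ± 8.58 CPM. Its log2 fold change was 0.38 (SE 0.08, adjusted p = 0.00333 by edgeR). Over-con (189 ± 8.04 CPM) overlapped KO, and against it the log2 fold change was 0.10 (adjusted p = 0.573 by edgeR), so that KO-con again stood apart.

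None of the 7 genes for histamine breakdown, uptake and receptors was tested. Of 4 tested genes of serotonin handling 1 rose in KO, where 5.83% of all transcripts did. This was *Maoa*, the monoamine oxidase that degrades serotonin, at 191 ± 10.7 against 163 ± 3.71 CPM (SD, n = 3), with a log2 change of 0.23 (SE 0.07, adjusted p = 0.0393 by edgeR). Its call was lost without any library except KO replicate 1, and against Over-con the log2 fold change was 0.42 (adjusted p = 0.00436 by edgeR).

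Of 9 tested genes of arachidonate release and prostanoids 1 rose in KO, where 5.83% of all transcripts did. In Over 1 rose, where 0.766% of all transcripts did, and 2 fell, where 0.883% did. *Ptgs2*, cyclooxygenase-2, which supplies the substrate of HPGDS, stood at 72.8, 68.5 and 86.2 CPM in KO and at 40.7, 46.7 and 43.0 CPM in KO-con. Over had 40.3, 43.3 and 39.6 CPM and Over-con 58.7, 60.9 and 47.6 CPM. It rose in KO by 0.81 on the log2 scale (SE 0.10, adjusted p = 8.14e-05 by edgeR), and in Over the log2 fold change was -0.44 (SE 0.10, adjusted p = 0.0351 by edgeR). Its groups did not overlap in either comparison, as for 30.1% of all transcripts in KO and 19.1% in Over. Against KO-con, however, the Over libraries overlapped, with a log2 fold change of -0.088 for *Ptgs2* (adjusted p = 0.504 by edgeR). Against Over-con, KO had 0.45 (adjusted p = 0.0305 by edgeR). *Ptgis*, prostacyclin synthase, stood at 68.5 ± 4.75 CPM in Over and 44.2 ± 7.01 CPM in Over-con (SD, n = 3), with a log2 fold change of 0.61 (SE 0.10, adjusted p = 0.00559 by edgeR). KO (114 ± 3.17 CPM) and KO-con (109 ± 5.07 CPM) were above both, and against KO-con the log2 fold change of *Ptgis* in Over was -0.68 (adjusted p = 2.68e-08 by edgeR). Its call was lost without Over replicate 3 or Over-con replicate 1. *Ptges*, a prostaglandin E synthase, had a log2 fold change of -0.38 in Over (SE 0.08, adjusted p = 0.0336 by edgeR) and of 0.29 against KO-con (adjusted p = 0.0215 by edgeR). The calls of *Ptgs2* and *Ptges* in Over were lost without any library except Over-con replicate 3.

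Of the leukotriene genes 5 of 17 were tested in KO and 4 in Over. In KO 1 rose, where 5.83% of all transcripts did, and 1 fell, where 5.96% did. In Over 1 rose, where 0.766% of all transcripts did. *Alox5ap*, the protein that presents arachidonate to 5-lipoxygenase, had 0, 1, 4 and 1 counts in KO, KO-con, Over and Over-con on NM_009663 and 0 on its other transcript. *Alox15*, the 12/15-lipoxygenase, rose in KO by 0.68 on the log2 scale (SE 0.17, adjusted p = 0.0141 by edgeR) and in Over by 0.69 (SE 0.15, adjusted p = 0.0314 by edgeR). The call in KO was lost without KO or KO-con replicate 2, and that in Over without any library except Over-con replicate 3. *Ltb4r1*, a leukotriene B4 receptor, had a log2 fold change of -0.46 in KO (SE 0.11, adjusted p = 0.00904 by edgeR), and its call was lost without KO-con replicate 3.

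Of the genes for granule proteases and proteoglycan 4 of 7 tested rose in KO, where 5.83% of all transcripts did, and 1 fell, where 5.96% did, with a median log2 fold change of 0.71 against 0.01 over all transcripts. *Cpa3*, mast cell carboxypeptidase, stood at 1151, 1146 and 1215 CPM in KO and at 429, 359.7 and 413 CPM in KO-con. Over had 636, 657 and 665 CPM and Over-con 803, 858 and 744 CPM. None of these groups overlapped, where 30.1% of all transcripts did not in KO against KO-con and 19.1% did not in Over against Over-con. The log2 fold change was 1.55 in KO (SE 0.08, adjusted p = 2.62e-09 by edgeR) and -0.30 in Over (SE 0.06, adjusted p = 0.0247 by edgeR). The call in Over was lost without any library except Over-con replicate 3, and against KO-con the log2 fold change of *Cpa3* in Over was 0.70 (adjusted p = 5.38e-10 by edgeR). Against Over-con, KO had 0.54 (adjusted p = 0.000681 by edgeR). *Ctsg*, cathepsin G, rose in KO to 256 ± 18.4 from 114 ± 10.4 CPM (SD, n = 3), with a log2 change of 1.17 (SE 0.08, adjusted p = 9e-08 by edgeR). *Ndst2*, which sulfates heparin, rose in both lines, by 0.60 in KO (SE 0.08, adjusted p = 8.94e-05 by edgeR) and by 0.42 in Over (SE 0.08, adjusted p = 0.0159 by edgeR), the latter call being lost without any library except Over-con replicate 3. The fourth to rise in KO, named after its values were seen, was *Cma1*, mast cell chymase, with a log2 fold change of 1.79 (adjusted p = 0.00834 by edgeR). *Gzmb*, granzyme B, a granule protease of lymphocytes and mast cells, had 4 counts over the KO libraries, 54 over KO-con, 262 over Over and 268 over Over-con. Its log2 fold change in KO was -3.73 (SE 0.59, adjusted p = 0.000665 by edgeR), a value that rests on no more than 2 counts in a KO library.

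Of 14 mast cell transcription factors 9 were tested in KO and 7 in Over. In KO 1 fell, where 5.96% of all transcripts did, and none rose, where 5.83% did. In Over 2 rose, where 0.766% of all transcripts did, and none fell, where 0.883% did. *Lyl1*, a bHLH factor of blood progenitors, stood at 95.6, 134 and 111 CPM in KO and 173, 149 and 159 CPM in KO-con. Over had 113, 121 and 101 CPM and Over-con 69.3, 69.0 and 94.8 CPM. The KO and Over libraries overlapped, with means of 114 ± 19.4 and 112 ± 10.0 CPM (SD, n = 3), and the controls lay above and below them. *Lyl1* had a log2 fold change of -0.49 in KO (SE 0.10, adjusted p = 0.00418 by edgeR) and of 0.51 in Over (SE 0.11, adjusted p = 0.0279 by edgeR). Both signs turned with the other control, to 0.54 in KO (adjusted p = 0.0270 by edgeR) and -0.53 in Over (adjusted p = 1.03e-06 by edgeR), and KO-con was 2.06-fold above Over-con (adjusted p = 4.6e-07 by edgeR). The call in Over was lost without any library except Over-con replicate 3. *Zfpm1*, the GATA cofactor FOG1, stood at 41.7 ± 0.398 CPM in Over and 25.5 ± 1.60 CPM in Over-con (SD, n = 3), with a log2 change of 0.69 (SE 0.09, adjusted p = 0.000592 by edgeR). Over-con was the group that stood apart: KO (43.8 ± 6.81 CPM) and KO-con (46.4 ± 6.44 CPM) overlapped Over, and against KO-con the log2 fold change of *Zfpm1* in Over was -0.17 (adjusted p = 0.185 by edgeR). In KO it did not pass (-0.08, SE 0.12, adjusted p = 0.761 by edgeR). Beside these changes, macrophage markers (6 of 7 above 3 counts, *Adgre1* at 0) summed to 49.0 to 60.4 CPM in KO and 41.1 to 48.9 CPM in KO-con. They summed to 57.0 to 60.3 CPM in Over and 41.1 to 49.2 CPM in Over-con, without overlap in either comparison, though narrowly in KO. Of all transcripts, 30.1% in KO and 19.1% in Over did not overlap either. Most of the sum was *Cd68* (mean 34.4 CPM). *Cd14* was lower than in the control in KO (4.60 against 6.53 CPM) and in Over (7.68 against 8.56 CPM), and *Mrc1* and *Csf1r* were lower in Over. Basophil markers (4 of 6 above 3 counts, *Fcer1a* at 0) summed to 23.7 to 26.1 CPM in KO and 23.2 to 31.5 CPM in KO-con. Their sum was 13.1 to 17.2 CPM in Over and 13.5 to 19.5 CPM in Over-con, and most of it was *Il4* (mean 16.8 CPM). The part of these markers in the results was not tested.

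**Figure D4:**
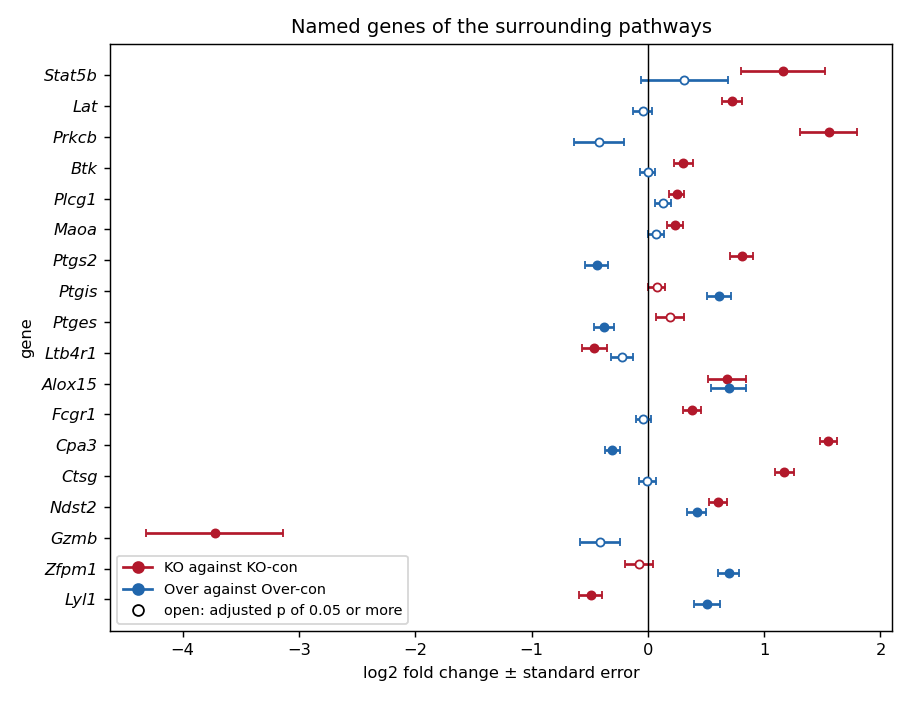
Log2 fold change with its standard error (x axis) of 18 named genes around the 10 (y axis), KO against KO-con in red and Over against Over-con in blue. Filled points passed an adjusted p under 0.05 in edgeR. *Prkcb*, *Cpa3* and *Ctsg* lie furthest to the right in KO, at 1.55, 1.55 and 1.17, and *Gzmb* furthest to the left, at -3.73.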

How the data were processed

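RNA-seq was carried out on 12 FGSC libraries (stranded poly(A) kit). After trimming and alignment to mm9 by HISAT2, the authors deposited raw read counts per RefSeq transcript that had not been normalized. The table's name points to featureCounts, and its settings and version are not given in the sources used here. Groups and replicate numbers came from sample titles. Gene symbols were matched through RefSeq's GRCm38.p6 table (41186 of 41388 transcripts matched), gene positions from GENCODE on mm9, and promoters from RefSeq on GRCm38.p6, which held all 10 genes.

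Counts were tested with edgeR 4.0.16 (TMM, filterByExpr, glmQLFit, glmQLFTest, Benjamini-Hochberg over all transcripts tested) in R 4.3.3, with a call at an adjusted p under 0.05. CPM used TMM factors over all 12 libraries. Alternatives were DESeq2 1.42.0, limma-voom (limma 3.58.1), other scalings and filters, counts summed per gene, a replicate block, 12 libraries in 1 fit, the other control, a fold change threshold and each library left out. Libraries of a group differed by more than sampling noise (chi-square over degrees of freedom between 2.02 and 14.0).

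All 10 genes were named with all their transcripts. Of the pathway lists, genes called in KO or Over with groups that did not overlap were named, at most 4 per list by lowest adjusted p, with *Alox5ap*, *Syk*, *Lyn*, *Ddc* and *Kitl* whatever their values. The genes and lists were chosen with earlier results of these data known. The remaining marker lists gave summed levels of at most 0.349 CPM in any library for neutrophils, 1.14 for eosinophils, 0.483 for T and B cells, 10.0 for dendritic cells, 1.76 for oocytes and 28.2 for ovarian somatic cells.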

Additional observations from a re-analysis of the deposited data

Results flagged for a closer look

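Of the 10 mast cell genes, the effects of the knockout and of the overexpression differed from each other for *Tph1* and *Slc18a2* by the test of the difference in the fit of all 12 libraries (edgeR's quasi-likelihood test). The knockout effect minus the overexpression effect was -0.88 on the log2 scale for *Tph1* (adjusted p = 0.00868 by edgeR) and 0.42 for *Slc18a2* (adjusted p = 0.0396 by edgeR). In both genes KO-con was the group that stood apart from the other 3.

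The same test passed for 14 of the 70 tested genes around them, 10 with a higher and 4 with a lower knockout effect, where 4.12% and 4.52% of all transcripts passed. Of these, 11 are among the genes named above, which were chosen for a call in KO or Over. The difference was positive for *Lat* (0.76), *Prkcb* (1.98), *Ptgs2* (1.25), *Ptges* (0.57), *Fcgr1* (0.42), *Cpa3* (1.86) and *Ctsg* (1.18). It was negative for *Ptgis* (-0.53), *Gzmb* (-3.31), *Zfpm1* (-0.77) and *Lyl1* (-0.999). Adjusted p-values by edgeR lay between 2.53e-10 for *Cpa3* and 0.0174 for *Ptges*. For *Ptgs2*, *Cpa3* and *Lyl1* the effect passed the test in each line with opposite signs, but the calls in Over were lost without any library except Over-con replicate 3. Against KO-con, *Ptgs2* did not pass in Over (-0.088, adjusted p = 0.504 by edgeR). There the signs of *Cpa3* (0.70) and *Lyl1* (-0.53) in Over turned. For *Lyl1* KO (114 CPM) and Over (112 CPM) overlapped, and KO-con (161 CPM) and Over-con (77.7 CPM) lay above and below them. KO-con also stood apart for *Lat*, *Prkcb* and *Fcgr1*, and Over-con for *Zfpm1*.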

How the results depend on the processing

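Genes with more than 1 listed transcript, which include *Kit*, *Ms4a2*, *Ltc4s* and *Tph1*, may lack counts whatever their expression. Only more than 3 counts in a library was read as expression. Of the 10 genes, the number called in KO against KO-con (3) stayed between 2 and 3 when a library was left out, fell to 1 with Over-con in place of KO-con and to 1 with a fold change threshold. In Over against Over-con it was 0 throughout, also with each library left out, except with KO-con in place of Over-con, where it was 2. Between the controls (2, also with each library left out) and for the difference between the effects (2, or 1 to 2 with a library left out) the threshold left 0. The replicate numbers are no known pairing, since no source used here states one. Deviations from the group means correlated at -0.299 to 0.0495 between libraries with the same number. In KO against KO-con these correlations were -0.185, -0.18 and -0.163, against 0.0313 to 0.151 between other numbers. Deviations within a group offset one another, so the correlations cannot decide whether libraries were paired. With the replicate block the difference between the effects was called for 1 gene, since *Slc18a2* stayed at 0.42 with an adjusted p of 0.058 by edgeR, and the block changed no other call of a gene of the 10.

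Of the genes around them, the number called in KO against KO-con (16 of 68, or 12 to 18 with a library left out) fell to 6 with the threshold, which 1.7% of all transcripts passed. In Over against Over-con the number (8 of 63) moved to 3 with the replicate block (*Ptgis*, *Zfpm1* and *Ndst2*, with no fall called). With KO-con as control it was 19 of 63 (14 higher and 5 lower). The shares over all transcripts rose too, from 0.766% to 10.8% called higher and from 0.883% to 10.7% called lower. The number was 0 with the threshold, which 0.17% of all transcripts passed, and 1 to 14 with a library left out. It was 14 without Over-con replicate 3 and 1 to 3 without any other library. Between the controls 18 genes fell to 5 with the threshold (13 to 19 with a library left out), which 2.16% of all transcripts passed. For the difference between the effects 14 fell to 6 (11 to 15), where 1.9% of all transcripts passed the threshold.

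Signs changed with the other control. Against Over-con, KO gave log2 fold changes of 0.11 for *Tph1*, -0.19 for *Slc18a2* and 0.060 for *Hpgds*, and against KO-con, Over gave -0.65 for *Tph1* and -0.026 for *Hpgds*. Values near 0 also changed sign. Between the controls *Fcer1g* was -0.017 with library totals and -0.0048 to 0.094 with a library left out, and *Hdc* was -0.0011 with limma-voom and -0.21 to 0.36 with a library left out. For the difference between the effects *Fcer1g* was 0.0097 with library totals and -0.083 to 0.032 with a library left out.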
